A study of Mus musculus with 6 samples.

Results

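Genes of the mitotic spindle, the kinetochore and chromosome segregation were examined in YFP+Mac-1+c-Kit+ leukemia-initiating cells (LICs), the cells that can re-establish the leukemia in a new host. The members were chosen by symbol as 55 genes with an established part in mitosis, with earlier results of these data known. This choice limits the comparisons with all tested genes below. The members run from CDK1 and its cyclins to kinetochore subunits, mitotic kinesins, condensin and the proteins that guard cohesion. All 55 were found among the 27179 genes of the deposited table. The study compared LICs of an acute myeloid leukemia in which lineage-negative fetal liver cells of Asic3+/+ (WT) or Asic3-/- (Asic3-null) mice had been transformed with a retrovirus carrying MLL-AF9 and YFP, and then transplanted into lethally irradiated recipients. ASIC3 is an acid-sensing ion channel of the cell surface, and the question was what its loss changes in LICs of an acidic bone marrow. Bone marrow LICs of both groups were sorted by flow cytometry, and 3 libraries labelled WT and 3 labelled Asic3-null were sequenced. All 6 are given as C57BL/6, 8 weeks old, and all carry MLL-AF9, so that no library comes from normal cells. The labels give no donor or recipient for a library, and the p-values below measure only the spread between these libraries.

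A cell that enters mitosis must condense its chromosomes, build a bipolar spindle, attach each sister kinetochore to microtubules from opposite poles and cut the cohesin that holds the sisters together only when all are attached. CDK1 bound to cyclin B drives entry, Aurora and Polo kinases order the steps, the spindle assembly checkpoint restrains the anaphase-promoting complex, and separase ends the hold of cohesin. The mRNAs of these genes are low in resting and early cycling cells and build up through G2 and M under the control of the DREAM and MuvB complexes with B-MYB and FOXM1, which is why they are widely read as a measure of how many cells of a sample are dividing. In sequenced bulk RNA, fewer dividing cells and less mitotic mRNA per dividing cell cannot be told apart.

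The table holds RPKM, reads per kilobase of gene scaled to the library's total, and the whole reads behind each value could be recovered from its digits. Library size was 1947168 to 2381861 reads, and 11 to 1240 reads lay behind each member in each library, with a median of 162. Asic3, the gene that was knocked out, was higher where its loss is labelled, and groups are named here by their labels only. Asic3 was read at 9.12, 4.11 and 6.58 RPKM in the null-labelled libraries and at 1.22, 1.85 and 0.435 RPKM in the WT-labelled ones. The sources used here do not give which part of Asic3 is deleted, and whether these reads lie in it was not tested. Meis1, a transcription factor of leukemia self-renewal, was called higher with the Asic3-null label, at 21.7, 28.2 and 35.3 against 14.2, 14.9 and 13.99 RPKM (limma adjusted p = 0.0367). Of its partners in MLL-driven leukemia, Hoxa9 was at 67.1, 42.3 and 48.9 against 73.5, 73.5 and 87.8 RPKM (limma adjusted p = 0.151) and Hoxa10 at 13.7, 7.35 and 11.1 against 21.3, 15.7 and 22.2 RPKM (limma adjusted p = 0.112), both lower in every null-labelled library than in any WT-labelled one. Whether the labels were exchanged was not tested. Xist ran from 46.5 to 71.9 RPKM with the Asic3-null label and from 0.024 to 0.057 RPKM with the WT label, while 4 Y-linked genes were listed at 0 in the former only, so that sex and genotype label cannot be told apart. The markers of the sort, Itgam (Mac-1) and Kit, were read in all 6 libraries. Itgam was called lower with the Asic3-null label, at 12.3 to 16.9 against 55.1 to 89.5 RPKM, and Kit was at 14.4 to 20.4 against 8.97 to 15.3 RPKM. Of 10 neutrophil granule genes, all 10 were called lower in the libraries labelled Asic3-null, where their summed level was 324 to 509 RPKM against 4379 to 5320 RPKM in those labelled WT, and macrophage markers summed to 169 to 217 against 321 to 354 RPKM, with 3 of the 5 tested called lower. Erythroid markers summed to 1.02 to 10.8 RPKM, with Slc4a1 listed at 0 throughout, no T cell marker reached the expression filter, with Cd3e, Cd4 and Cd8a listed at 0, and of 3 B cell markers tested none was called. The part of these marker lists in the results below was not tested.

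The promoters of mitotic genes share short elements, and those of the members carried them often. The cell cycle genes homology region, a site for MuvB complexes, was searched as TTTGAA on either strand, and the site of the factor NF-Y as CCAAT on either strand. A match of one can share at most 1 base with a match of the other. RefSeq promoter windows of GRCm38.p6, from 250 bases before to 50 bases after a gene's start, were at hand for 47 members in 52 windows. TTTGAA lay in 34 of the 52 windows (65.4%) against 17.9% of all 32851 windows and 12.4% of the windows of tested genes, and CCAAT in 41 (78.8%) against 37.4% and 38.5%. Both elements were present in 29 windows (55.8%), against 6.95% of all windows and 5.17% of those of tested genes, and 24 windows (46.2%) held at least 2 CCAAT matches, against 11.7% and 14.8%. Of 107 windows of other mitotic genes, 34.6% held TTTGAA and 52.3% held CCAAT. A match of letters is not a shown binding site, and no binding was measured here. The 200 bases before the start are printed for 4 members with both elements in the window, with the matches in capitals. The genes have different roles: a cyclin, its kinase, and a subunit of the inner and of the outer kinetochore. The spacing of the elements differed between them, and the TTTGAA of Spc25 lay outside the printed bases.
Ccnb2: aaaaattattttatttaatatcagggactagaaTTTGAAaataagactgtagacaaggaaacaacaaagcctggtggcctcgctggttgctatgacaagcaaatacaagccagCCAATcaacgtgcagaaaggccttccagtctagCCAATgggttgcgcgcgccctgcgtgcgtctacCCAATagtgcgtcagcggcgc
Cdk1: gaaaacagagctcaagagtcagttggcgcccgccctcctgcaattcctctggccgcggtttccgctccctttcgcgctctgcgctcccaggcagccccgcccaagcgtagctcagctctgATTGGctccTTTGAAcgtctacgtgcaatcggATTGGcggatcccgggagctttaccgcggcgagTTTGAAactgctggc
Cenpn: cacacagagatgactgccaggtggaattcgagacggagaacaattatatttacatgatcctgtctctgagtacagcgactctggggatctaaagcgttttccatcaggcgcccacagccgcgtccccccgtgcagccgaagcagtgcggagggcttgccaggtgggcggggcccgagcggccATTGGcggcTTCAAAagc
Spc25: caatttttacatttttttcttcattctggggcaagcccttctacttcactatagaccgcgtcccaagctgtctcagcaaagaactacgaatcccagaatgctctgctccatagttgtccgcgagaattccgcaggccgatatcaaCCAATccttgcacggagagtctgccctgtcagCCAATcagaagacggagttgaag
The stretches lie at chr9:70421555-70421754, strand - (Ccnb2), chr10:69352913-69353112, strand - (Cdk1), chr8:116921540-116921739, strand + (Cenpn) and chr2:69206214-69206413, strand - (Spc25), each written along the gene's own strand. The Ccnb2 stretch held 3 CCAAT letters at 87, 54 and 21 bases before the start, and its TTTGAA letters lay 167 bases before and 4 bases after it. In Cdk1 a CCAAT on the opposite strand (ATTGG) lay 80 bases before the start and a TTTGAA at 71, with a further pair at 48 and 15 and a CCAAT at 208, outside the printed bases. In Cenpn the pair stood at 18 and 9 bases, and in Spc25 CCAAT stood at 55 and 23 bases before the start, with TTTGAA 24 bases after it. The 32 members with a TTTGAA match had a median log2 fold change between the groups of 0.42 and the 15 without one of 0.32, with ranges from -0.18 to 0.63 and from -0.18 to 0.91. For CCAAT the order was the other one, with a median of 0.41 in the 36 members with a match and of 0.42 in the 11 without.

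To find whether mitotic genes differed between the LICs of the 2 labels, log2(RPKM + 1) was compared with limma over the 12037 genes with a mean of at least 1 RPKM, and all 55 members passed that filter. Most members had a higher mean in the libraries labelled Asic3-null, by a modest amount that did not clear the spread between libraries once all genes were counted. The log2 fold change was above 0 for 51 of the 55 members, the others being Cenpk, Cenpf, Pttg1 and Smc4, against 54.5% of all tested genes. It ran from -0.18 (Cenpk) to 0.91 (Nusap1) with a median of 0.42, against 0.03 over all tested genes. No member was called at an adjusted p under 0.05 by limma with Benjamini-Hochberg adjustment (background: 0.523% of tested genes called higher and 2.82% called lower). At an unadjusted p under 0.05 there were 19 members, all of them higher in the libraries labelled Asic3-null, where 6.43% of tested genes were higher and 9.45% lower. With limma-voom on the recovered reads, 24 members passed an unadjusted p under 0.05 in the same direction (background 6.59%), and Nusap1 and Espl1 passed the adjusted threshold (background 0.764% called higher). All 3 libraries labelled Asic3-null lay above all 3 labelled WT for 18 members, and the reverse held for none, against 11.2% and 11.4% of tested genes. For a single gene, 3 against 3 libraries cannot give a two-sided exact permutation p under 0.10, and each of these 18 members had that value. The counts by role below have backgrounds of 6.43% (unadjusted p under 0.05 and higher) and 11.2% (higher without overlap).

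**Figure D1:**
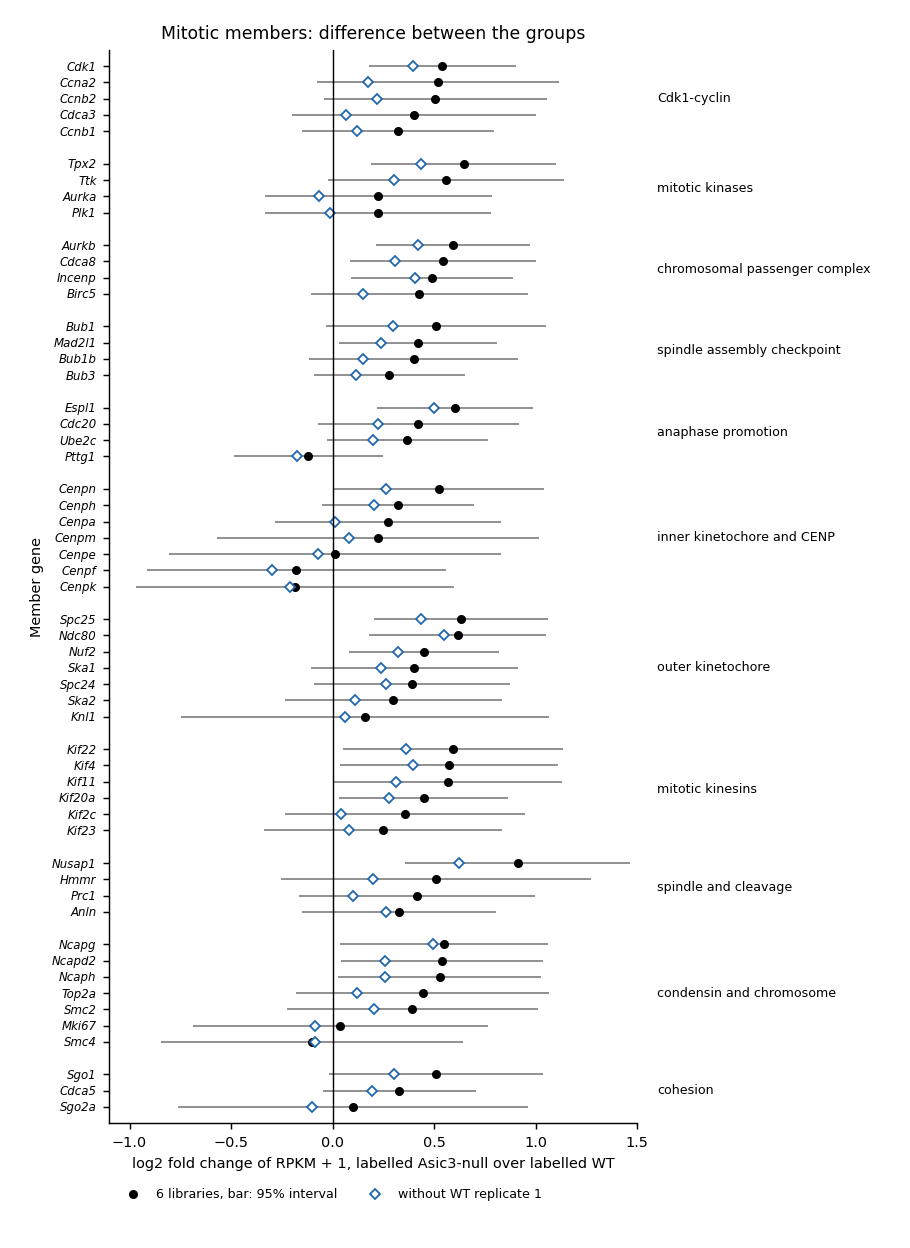
Log2 fold change of RPKM + 1 between the libraries labelled Asic3-null and those labelled WT for the 55 members, grouped by role; black points with 95% intervals from limma are over all 6 libraries, and open diamonds leave out WT replicate 1. Of the 55 black points 51 lie right of 0 and 19 intervals exclude 0, while without WT replicate 1 46 diamonds lie right of 0.

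At the entry into mitosis, CDK1 and its partners all had a log2 fold change above 0 (5 of 5), with a median of 0.51, and 1, Cdk1, was at an unadjusted p under 0.05. Cdk1, the kinase itself, had 57.1, 49.0 and 56.4 RPKM in Asic3-null replicates 1 to 3 and 29.9, 40.2 and 41.5 RPKM in WT replicates 1 to 3. The groups did not overlap, the lowest library was WT 1, and the log2 fold change was 0.54 (95% interval 0.18 to 0.90, limma adjusted p = 0.130). Ccnb2, a B-type cyclin and the most abundant of the group, had 127, 93.4 and 123 RPKM against 53.1, 91.3 and 104 RPKM. Here WT 3 lay above Asic3-null 2, and the interval of the log2 fold change, 0.51, ran from -0.04 to 1.06 (limma adjusted p = 0.349), and it was 0.22 without WT 1. Ccna2, Ccnb1 and Cdca3, which encode cyclin A2, cyclin B1 and a trigger of mitotic entry, had log2 fold changes of 0.52, 0.32 and 0.40. Each was lowest in WT 1, without which they were 0.17, 0.12 and 0.06, and the median of the 5 was then 0.17.

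The mitotic kinases and the activator of Aurora A had a median log2 fold change of 0.39, and 1 of 4, Tpx2, was at an unadjusted p under 0.05. Tpx2, the spindle factor that activates Aurora A, stood at 49.0, 37.6 and 44.4 RPKM with the Asic3-null label and at 20.2, 31.4 and 32.3 RPKM with the WT label. Its groups did not overlap, with a log2 fold change of 0.65 (0.19 to 1.10, limma adjusted p = 0.151), the highest of the 55 after Nusap1, and 0.43 without WT 1. Aurka, the centrosomal Aurora kinase that TPX2 activates, had 44.2, 40.3 and 54.3 against 25.7, 45.6 and 51.0 RPKM. WT 2 and WT 3 lay within the range of the libraries labelled Asic3-null, WT 1 alone lay below it, and the log2 fold change of 0.23 (-0.33 to 0.78) became -0.07 without WT 1. Plk1 (Polo-like kinase 1) was highest in WT 3, at 41.6 RPKM, and Ttk, the checkpoint kinase MPS1, had a log2 fold change of 0.56 (-0.02 to 1.14) that was 0.30 without WT 1. The median of the kinases and Tpx2 was then 0.15.

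The chromosomal passenger complex, which corrects faulty attachments of kinetochores and later sets the cleavage furrow, had the highest median of the roles. Its median log2 fold change was 0.52, with the mitotic kinesins next at 0.51. Of its members 3 of 4 were at an unadjusted p under 0.05 (background 6.43%) and 3 without overlap (background 11.2%). Without WT 1, Aurkb alone of the 4 stayed at an unadjusted p under 0.05. Aurkb, its kinase, was read at 116, 104 and 98.1 RPKM in the null-labelled libraries and at 54.7, 74.3 and 83.1 RPKM in the WT-labelled ones. The groups were apart, at 106 ± 8.95 and 70.7 ± 14.5 RPKM (mean ± SD, n = 3 each). Aurkb had a log2 fold change of 0.59 (0.21 to 0.97, limma adjusted p = 0.113), which was 0.42 without WT 1. Incenp, the scaffold of the complex, had 129, 81.3 and 103 against 64.9, 76.9 and 77.2 RPKM. The groups were apart by a narrow gap between Asic3-null 2 and WT 3, with a log2 fold change of 0.49 (0.09 to 0.89, limma adjusted p = 0.219). Cdca8 (borealin) and Birc5 (survivin), which place the complex on chromatin, had log2 fold changes of 0.54 and 0.43, which were 0.31 and 0.15 without WT 1, and the median of the complex was then 0.36.

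Genes of the spindle assembly checkpoint, which holds back anaphase while any kinetochore is unattached, had a median log2 fold change of 0.41, with 1 of 4 at an unadjusted p under 0.05. Mad2l1, whose product MAD2 binds and inhibits CDC20, was the most even of all members in the libraries labelled Asic3-null, at 45.3, 43.8 and 45.7 RPKM, against 25.6, 36.9 and 38.9 RPKM in those labelled WT. The groups did not overlap, and the log2 fold change was 0.42 (0.03 to 0.81, limma adjusted p = 0.279), and 0.24 (-0.075 to 0.55) without WT 1. Bub3, which brings BUB1 and BUBR1 to kinetochores and was the most abundant of the 55 per length, had 104, 118 and 109 against 72.2, 92.7 and 111 RPKM. WT 3 lay inside the range of the libraries labelled Asic3-null, and the log2 fold change of 0.28 (-0.09 to 0.65) was 0.12 without WT 1. Bub1 and Bub1b, which encode the checkpoint proteins BUB1 and BUBR1, had log2 fold changes of 0.51 and 0.40, which were 0.30 and 0.15 without WT 1, and the median of the checkpoint genes was then 0.195.

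Of the 4 genes that bring on anaphase, Espl1 was at an unadjusted p under 0.05, and the log2 fold changes ran from -0.12 to 0.60. Espl1 encodes separase, the protease that cuts cohesin, and stood at 16.5, 14.9 and 16.8 RPKM with the Asic3-null label and at 8.68, 11.8 and 10.4 RPKM with the WT label. The groups did not overlap and the spread within each was small, with means of 16.1 ± 1.04 and 10.3 ± 1.55 RPKM (SD, n = 3 each). Its log2 fold change was 0.60 (0.22 to 0.99, limma adjusted p = 0.111) and 0.65 with limma-voom (adjusted p = 0.0372), with adjusted p from 0.0372 to 0.305 over 15 alternatives. Pttg1, which encodes securin, the inhibitor that keeps separase inactive, had 10.4, 11.8 and 12.3 against 11.5, 12.4 and 13.9 RPKM. The groups overlapped, the log2 fold change was -0.12, and its interval from -0.49 to 0.25 had the lowest upper bound of all members. Ube2c, the ubiquitin-conjugating enzyme of the anaphase-promoting complex, had 74.7, 82.5 and 96.1 against 51.1, 76.7 and 69.4 RPKM, with WT 2 above Asic3-null 1 and a log2 fold change of 0.37 (-0.03 to 0.77) that was 0.20 without WT 1. Cdc20, the activator that MAD2 restrains, had a log2 fold change of 0.42 (-0.07 to 0.92) that was 0.22 without WT 1.

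**Figure D2:**
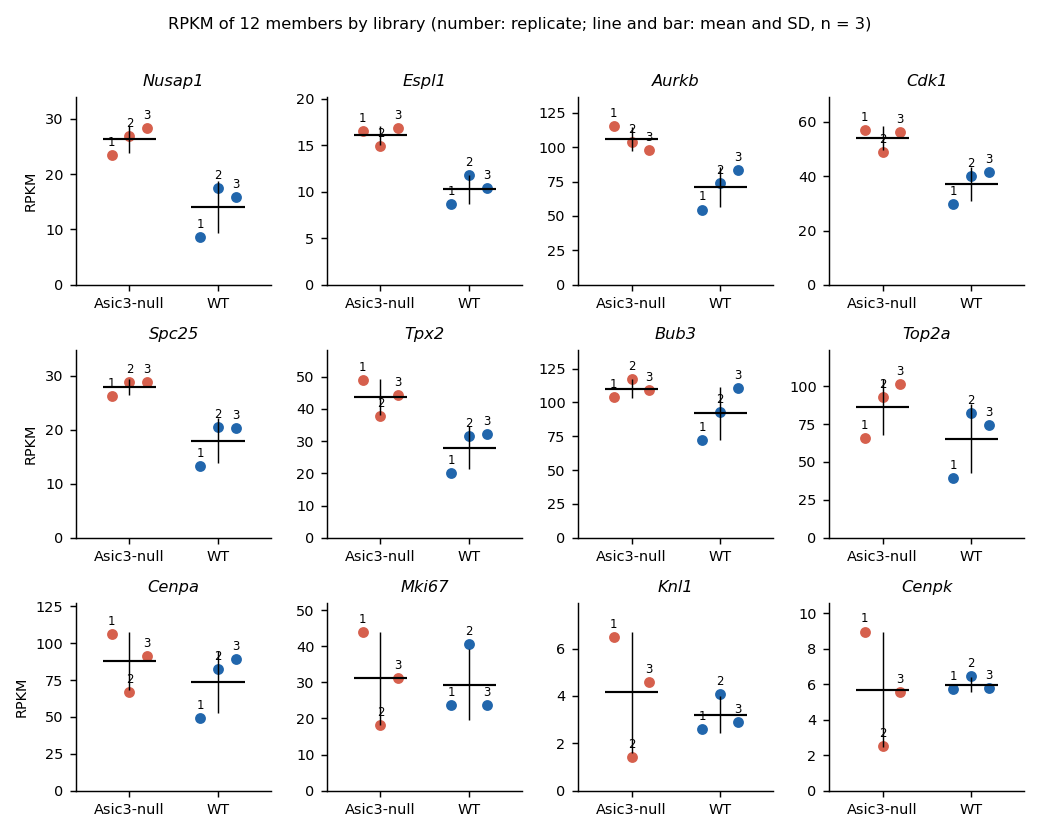
RPKM of 12 members in each library, with the replicate number above each point, the group mean as a horizontal line and the SD as a vertical bar (n = 3 per group; each vertical axis starts at 0). For Nusap1, Espl1, Aurkb, Cdk1, Spc25 and Tpx2 all 3 libraries labelled Asic3-null lie above all 3 labelled WT, and in every plot but that of Mki67, where WT 1 and WT 3 are level, WT 1 is the lowest library labelled WT.

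At the centromere, the inner kinetochore and CENP genes had the lowest median of the roles, a log2 fold change of 0.22, with 1 of 7 at an unadjusted p under 0.05. Cenpn, whose product reads the centromeric nucleosome, was read at 31.0, 24.5 and 27.9 RPKM in the null-labelled libraries and at 12.9, 23.8 and 21.98 RPKM in the WT-labelled ones. The gap between Asic3-null 2 and WT 2 was under 1 RPKM, and the log2 fold change of 0.52 had an interval from 0.01 to 1.04 (limma adjusted p = 0.306) and was 0.26 (-0.12 to 0.65) without WT 1. Cenpa, the histone variant that marks the centromere, had 106, 66.9 and 91.4 against 49.4, 82.6 and 89.1 RPKM. WT 1 was again the lowest and Asic3-null 2 the lowest of its group, so that the log2 fold change of 0.27 (-0.28 to 0.83) was 0.01 without WT 1 and 0.46 without Asic3-null 2. Cenpf, a large fibrous-corona protein, had 4.54, 2.15 and 5.28 against 3.59, 6.51 and 3.61 RPKM, and Cenpk, of the constitutive centromere network, 8.96, 2.52 and 5.58 against 5.71, 6.45 and 5.76 RPKM. In both, Asic3-null 2 was the lowest of the 6 libraries, and the log2 fold changes of -0.18 (-0.91 to 0.56) and -0.18 (-0.97 to 0.60) were 0.12 and 0.22 without it. Without WT 1 the median of the 7 genes was 0.01.

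At the outer kinetochore, the NDC80 complex grips the microtubule. Of its 4 genes 3, Ndc80, Nuf2 and Spc25, were at an unadjusted p under 0.05 (background 6.43%) and without overlap (background 11.2%). Spc25 stood at 26.2, 28.9 and 28.8 RPKM with the Asic3-null label and at 13.2, 20.5 and 20.3 RPKM with the WT label. The log2 fold change was 0.63 (0.21 to 1.06, limma adjusted p = 0.132), with 0.62 for Ndc80 and 0.45 for Nuf2, and without WT 1 the values were 0.44, 0.55 and 0.32. Spc24, the partner of SPC25 in the same complex, had 37.5, 63.2 and 40.4 against 28.9, 37.7 and 38.2 RPKM. Its Asic3-null 2 library stood well above the rest, the groups overlapped, and the log2 fold change of 0.39 (-0.09 to 0.87) was 0.16 without Asic3-null 2 and 0.26 without WT 1. Knl1, the scaffold that carries the checkpoint proteins to the kinetochore, had 6.49, 1.42 and 4.57 against 2.62, 4.09 and 2.91 RPKM. It had the largest SD of any member within a group, 0.85 on the log2 scale among the libraries labelled Asic3-null, and its log2 fold change of 0.16 (-0.74 to 1.06) was 0.63 without Asic3-null 2. Ska1 and Ska2, subunits of the complex that follows the shrinking microtubule end, had log2 fold changes of 0.40 and 0.30, which were 0.24 and 0.11 without WT 1.

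The 6 mitotic kinesins, motors that slide, shorten or carry microtubules and chromosomes, all had a log2 fold change above 0. Their median was 0.51, and 4 were at an unadjusted p under 0.05 (background 6.43%), but only Kif20a was without overlap (background 11.2%). Kif22, a motor that pushes chromosome arms to the spindle equator, was read at 73.7, 45.4 and 52.4 RPKM in the null-labelled libraries and at 26.5, 40.8 and 45.8 RPKM in the WT-labelled ones. WT 3 lay a little above Asic3-null 2, and the log2 fold change was 0.59 (0.05 to 1.13, limma adjusted p = 0.271) and 0.36 (-0.13 to 0.86) without WT 1. Kif4, a chromosome-bound motor of the central spindle that lies on the X chromosome, had a log2 fold change of 0.57 (0.03 to 1.11), at 0.40 without WT 1, and for it the sex difference between the groups cannot be told apart from the label. Kif11 (Eg5), Kif2c (MCAK) and Kif23 (MKLP1) had log2 fold changes of 0.57, 0.36 and 0.25, which were 0.31, 0.04 and 0.08 without WT 1, and the median of the 6 kinesins was then 0.30. Without Asic3-null 2, Kif23 was at 0.53.

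Nusap1, a protein that binds and bundles spindle microtubules near chromatin, had the largest difference of all members. It stood at 23.5, 26.9 and 28.3 RPKM with the Asic3-null label and at 8.68, 17.5 and 15.8 RPKM with the WT label, from 161 to 197 and from 54 to 111 recovered reads. The gene lies at chr2:119618298-119650165 (GRCm38). The groups stood apart, with means of 26.3 ± 2.498 and 14.01 ± 4.70 RPKM (SD, n = 3 each) and a ratio of means of 1.87. The log2 fold change was 0.91 (0.36 to 1.46, limma adjusted p = 0.0947) and 0.62 (0.24 to 1.00) without WT 1, and it was 0.96 with limma-voom (adjusted p = 0.0344), with adjusted p from 0.0344 to 0.271 over 15 alternatives. Prc1, which crosslinks the antiparallel microtubules of the central spindle, had 28.5, 31.0 and 36.2 against 14.8, 30.9 and 28.3 RPKM. WT 2 and WT 3 were close to the libraries labelled Asic3-null, and the log2 fold change of 0.42 (-0.17 to 1.00) was 0.10 without WT 1. Anln (anillin, of the cleavage furrow) and Hmmr (a spindle pole protein) had log2 fold changes of 0.33 and 0.51, which were 0.26 and 0.20 without WT 1 and 0.51 and 0.82 without Asic3-null 2.

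Among condensin and other chromosome-bound genes, 3 of 7 (Ncapd2, Ncapg and Ncaph) were at an unadjusted p under 0.05 (background 6.43%). The median log2 fold change of the 7 was 0.44. Ncapd2, a subunit of condensin I, the complex that compacts chromosome arms, was read at 110.5, 102 and 112.5 RPKM in the null-labelled libraries and at 50.04, 88.5 and 92.3 RPKM in the WT-labelled ones. The groups did not overlap, and the log2 fold change of 0.54 (0.04 to 1.04, limma adjusted p = 0.275) was 0.26 without WT 1. The other condensin I subunits, Ncapg and Ncaph, had log2 fold changes of 0.55 and 0.53, whereas Smc2 and Smc4, the paired ATPases of both condensins, had 0.39 and -0.10. Without WT 1, Ncaph was at 0.26, Smc2 at 0.21 and the median of the 7 genes at 0.21, and without Asic3-null 2 Smc2 was at 0.69 and Smc4 at 0.32. Smc4 was the one member for which WT 1 was not below the mean of the other libraries labelled WT. Top2a, the topoisomerase that untangles sister DNA, had 65.7, 92.6 and 101 against 39.6, 82.2 and 74.2 RPKM. The groups overlapped, and the log2 fold change was 0.44 (-0.18 to 1.07, limma adjusted p = 0.467) and 0.12 without WT 1. Mki67, whose product Ki-67 coats mitotic chromosomes and is the standard stain for cycling cells, had 44.0, 18.1 and 31.2 against 23.7, 40.7 and 23.7 RPKM. Its libraries were spread more widely within each group than the groups differed, and the log2 fold change of 0.04 had an interval from -0.69 to 0.77, which includes the median of the members, and it was -0.09 without WT 1 and 0.37 without Asic3-null 2.

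Among the genes that keep sister chromatids joined, none reached an unadjusted p under 0.05. Sgo1 (shugoshin 1), the guardian of centromeric cohesin, stood at 11.1, 8.72 and 12.5 RPKM with the Asic3-null label and at 5.14, 8.40 and 8.54 RPKM with the WT label. Asic3-null 2 lay just above WT 3, so that the groups did not overlap, and the log2 fold change was 0.51 (-0.02 to 1.04, limma adjusted p = 0.328) and 0.30 without WT 1. Cdca5 (sororin), which locks cohesin on DNA, had 54.2, 52.2 and 43.3 against 32.4, 40.4 and 46.3 RPKM. Its WT 3 library lay above Asic3-null 3, and the log2 fold change was 0.33 (-0.05 to 0.71) and 0.19 without WT 1, while Sgo2a had 0.10 (-0.76 to 0.96), which was -0.10 without WT 1 and 0.47 without Asic3-null 2.

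The members also differed between libraries of one group. Their summed level was 2481, 2044 and 2330 RPKM with the Asic3-null label and 1269, 1951 and 1954 RPKM with the WT label. WT 1 was the lowest by far, and the other libraries labelled WT lay close to Asic3-null 2. Each member was set against its own mean over the 6 libraries, and the median deviation of the 55 members on the log2 scale was 0.36, 0.038 and 0.25 in Asic3-null replicates 1 to 3 and -0.575, 0.03 and -0.043 in WT replicates 1 to 3. The WT 1 library thus stood alone below the others, and Asic3-null 2 was level with WT 2. Over all tested genes the same medians lay between -0.016 and 0.025. WT 1 was the lowest of the 6 libraries for 46 of the 55 members, against 19.7% of all tested genes, and Asic3-null 1 was the highest for 33, against 18.9%. In 54 members WT 1 lay below the mean of WT 2 and WT 3, and its ratio to that mean over the 55 ran from 0.475 to 1.01 with a median of 0.651. The median SD within a group on the log2 scale was 0.22 among the libraries labelled Asic3-null and 0.36 among those labelled WT, where it was 0.22 and 0.22 over all tested genes, and 39 members had the larger SD in WT.

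**Figure D3:**
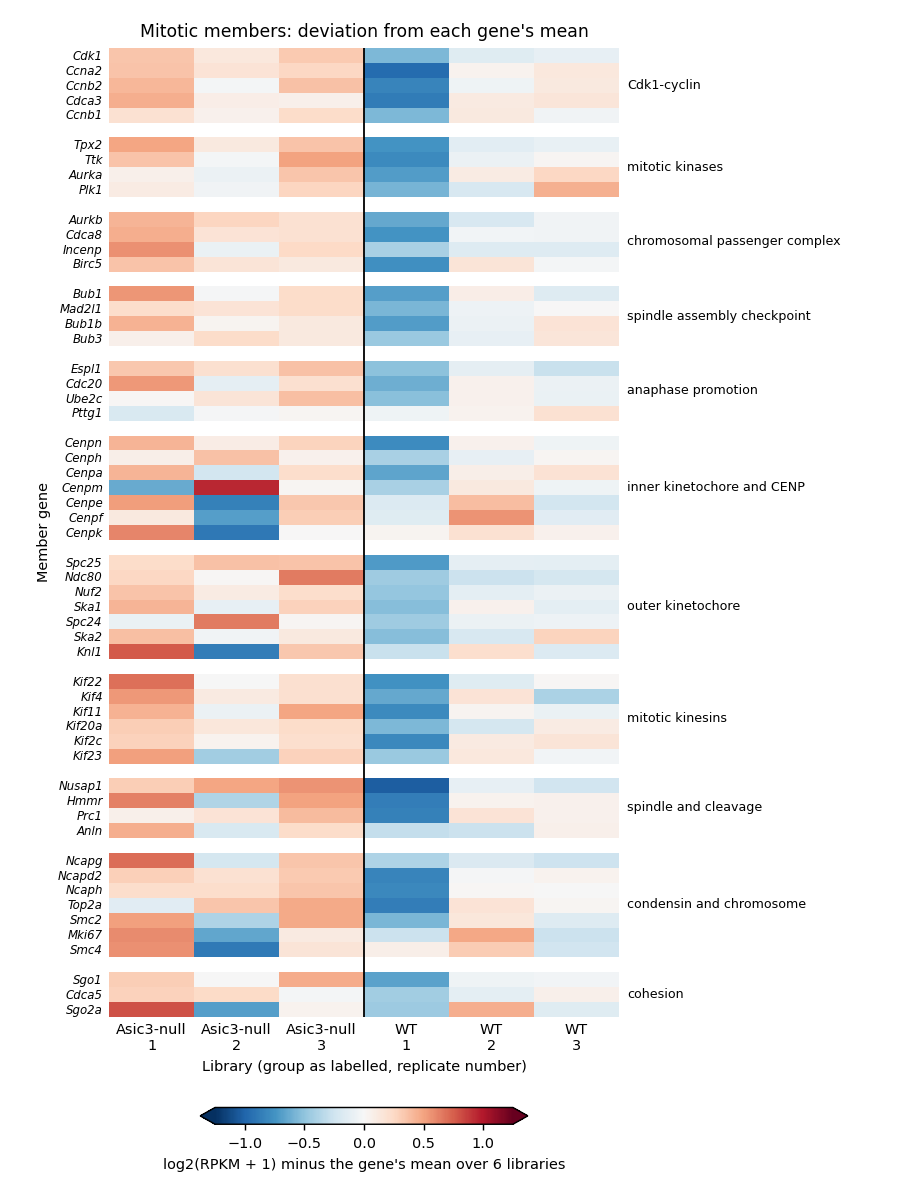
Deviation of log2(RPKM + 1) from each gene's mean over the 6 libraries for the 55 members (rows, grouped by role), with the libraries as columns; red is above and blue below the mean. The WT 1 column is blue through nearly all roles, with 46 members lowest there, while in the Asic3-null 2 column single genes such as Knl1, Cenpk and Smc4 are blue and Cenpm and Spc24 red.

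When WT 1 was left out, the median log2 fold change of the members was 0.21, in place of 0.42, and 46 of 55 remained above 0. An unadjusted p under 0.05 was then reached by 7 members (background 5.52%), all of which had reached it with the 6 libraries: Nusap1, Aurkb, Spc25, Espl1, Cdk1, Tpx2 and Ndc80. The other 12 of the 19 no longer reached it. The log2 fold changes of the 7 without WT 1 ran from 0.40 for Cdk1 to 0.62 for Nusap1, and no member was called. The count was also low without Asic3-null 1, at 8 (background 5.12%), and without Asic3-null 3, at 7 (background 4.72%). Of the markers, the summed neutrophil granule level of WT 1, 5218 RPKM, lay between those of WT 3 and WT 2. The summed erythroid level of WT 1, 10.8 RPKM, was the highest of the 6 libraries, against 4.86 and 3.07 RPKM in WT 2 and WT 3. It rests on few reads, at most 5 for a marker in WT 1 (Hba-a1), and 1 of 10 erythroid markers reached the expression filter. The part of the granule or the erythroid genes in the level of the members in WT 1 was not tested.

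The Asic3-null 2 library lay below the mean of Asic3-null 1 and 3 for 46 of the 55 members, by amounts that differed widely between genes. For 8 members (Cenpe, Cenpf, Cenpk, Knl1, Smc4, Sgo2a, Hmmr and Mki67) it lay below 0.5 of the mean of Asic3-null 1 and 3, and for Cenpm and Spc24 above 1.5. Smc4, for example, had 116, 42.0 and 87.8 RPKM in Asic3-null 1, 2 and 3, and Cenpm, a small subunit of the centromere network, had 12.6, 39.4 and 20.3 RPKM. Across the 55 members, which share the library, the deviation in Asic3-null 2 had a Spearman correlation of -0.355 with gene length and of 0.393 with the GC content of the longest transcript, and over all tested genes, for 92.4% of which a GC value was at hand, the values were -0.257 and 0.125. Across the members the correlation with length was 0.371 in Asic3-null 1, 0.375 in Asic3-null 3, -0.425 in WT 3, 0.232 in WT 2 and 0.054 in WT 1. Over all tested genes it was 0.133, 0.218, -0.142, 0.089 and -0.008 in the same order, so that Asic3-null 2 had the largest in size. A gene's deviations from its mean cancel out over the libraries, so a trend in some libraries brings opposite trends in others. These values therefore cannot show whether the trend with length is particular to Asic3-null 2. Across the members the correlation with GC content lay between -0.297 and 0.264 in the libraries other than Asic3-null 2. Without Asic3-null 2 the median log2 fold change was 0.51 and 27 members were at an unadjusted p under 0.05 (background 6.08%). Without that library 35 members were higher without overlap (background 18.8%). The longer 28 members had a median log2 fold change of 0.47 and the shorter 27 of 0.39.

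**Figure D4:**
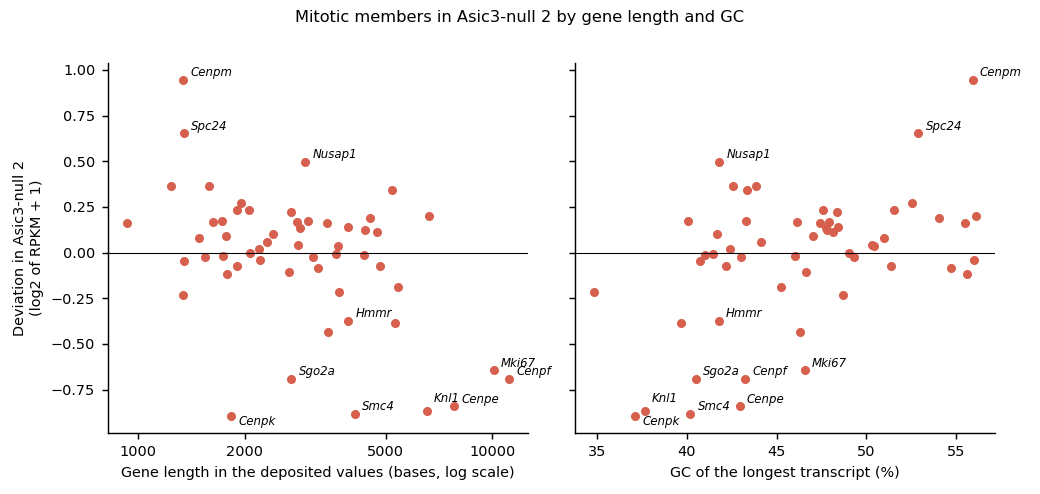
Deviation of log2(RPKM + 1) from the gene mean in the Asic3-null 2 library (vertical axes) against gene length in bases on a log scale (left) and against the GC content of the longest transcript in percent (right), with 1 point for each of the 55 members. Knl1, Cenpe, Cenpf and Mki67 lie at the lower right of the left plot, and Cenpm and Spc24 at its upper left. The Spearman correlations are -0.355 and 0.393. In the other libraries the correlation with length ran from -0.425 (WT 3) to 0.375 (Asic3-null 3). Over all tested genes it was -0.257 in Asic3-null 2 and from -0.142 (WT 3) to 0.218 (Asic3-null 3) in the others.

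Further genes of mitosis and of S phase were read for comparison. Of 118 other mitotic genes, which include the anaphase-promoting complex, the remaining centromere and kinetochore subunits, cohesin, augmin and the MuvB regulators, none was called by limma, 24 were at an unadjusted p under 0.05 (background 6.43%) and 36 without overlap (background 11.2%). All of these were higher with the Asic3-null label, and the log2 fold changes of the 118 had a median of 0.32. These counts moved with single libraries. Those at an unadjusted p under 0.05 numbered 8 without WT 1 (background 5.52%), 11 without Asic3-null 1 (5.12%) or Asic3-null 3 (4.72%), and 44 without Asic3-null 2 (6.08%). Without Asic3-null 2, 71 were higher without overlap (background 18.8%), and without WT 1 the median was 0.21. The 6 with the lowest p were Zwilch, Depdc1b, Cit, Ect2, Trip13 and Pmf1, none of them with overlapping groups. Zwilch, a subunit of the complex that brings MAD1 and dynein to kinetochores, had 20.8, 20.1 and 21.1 RPKM against 10.9, 14.2 and 14.4 RPKM, a log2 fold change of 0.62 (0.25 to 0.99, limma adjusted p = 0.0855). Its libraries labelled Asic3-null were even and stood well above all those labelled WT. Cit, the citron kinase of the midbody, had a log2 fold change of 0.75 with limma and was the gene that limma-voom called, at 0.83 (adjusted p = 0.0499, with a range from 0.0499 to 0.323 over 15 alternatives). Ect2, which activates RhoA at the cleavage furrow, had 22.9, 12.1 and 20.9 against 7.74, 10.4 and 11.5 RPKM, a log2 fold change of 0.82 (0.25 to 1.40). The median deviation of the 118 had the order of libraries of the members at its ends, with Asic3-null 1 highest and WT 1 lowest, at 0.305, -0.005 and 0.188 against -0.334, -0.036 and -0.071. Of 48 genes of DNA replication and S phase, none was called by limma or limma-voom and 2, Rrm1 (ribonucleotide reductase) and Tk1 (thymidine kinase), were at an unadjusted p under 0.05 and higher (background 6.43%), while 10 of the 48 were higher without overlap (background 11.2%) and 44 had a log2 fold change above 0 (background 54.5%). The list had a median log2 fold change of 0.25, which was 0.16 without WT 1. Leaving out 1 library gave from 0 such genes, without Asic3-null 2 (background 6.08%), to 8, without WT 3 (background 6.42%). Their order of libraries was another one: Asic3-null 2 was the highest for 34 of the 48, at a median deviation of 0.28 against 0.067 and 0.035 in the other libraries labelled Asic3-null. WT 1 was the lowest library for 34 of the 48 as well, at -0.309.

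**Figure D5:**
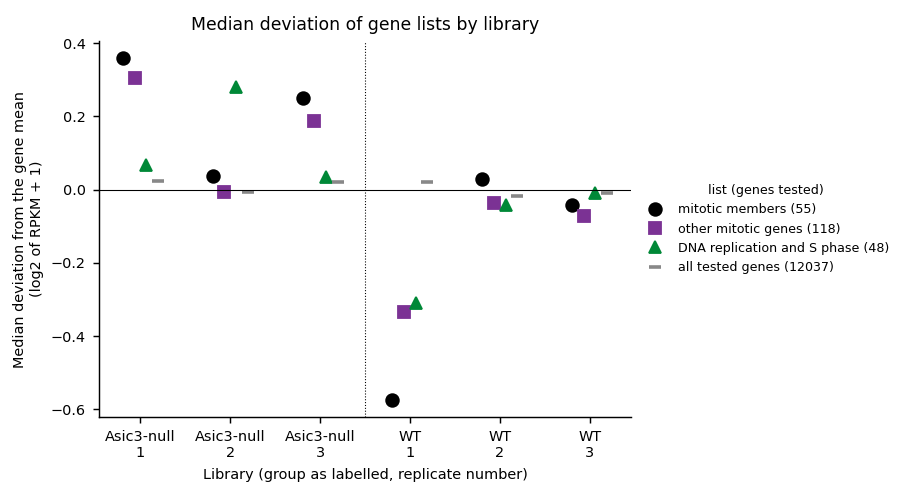
Median deviation from the gene mean, on the log2 scale of RPKM + 1, for the 55 members, 118 other mitotic genes, 48 genes of DNA replication and S phase and all 12037 tested genes in each library. WT 1 is the lowest library for all 3 cell cycle lists, and Asic3-null 2 is the highest for S phase genes (0.28) but near 0 for the members (0.038).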

How the data were processed

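Total RNA of the sorted LICs was sequenced in 3 libraries labelled Asic3-null and 3 labelled WT. The authors deposited RPKM values per gene, made, per the submitters' processing notes, with CASAVA 1.8.2 and TopHat2 2.0.12 on GRCm38; the counting tool and annotation are not given in the sources used here. For all 16825 genes above 0 in any library, the deposited RPKM values were whole reads within 0.0001 once library size and gene length were taken out, and these recovered reads entered the limma-voom alternative only. Groups follow the labels. The log2(RPKM + 1) values of the 12037 genes with a mean of at least 1 RPKM were fitted with limma 3.58.1 (R 4.3.3) with an intensity trend, and p-values were adjusted by Benjamini-Hochberg over all of them, with a threshold of 0.05. Fold changes on this scale understate those of low genes. Intervals are at 95%.

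The 55 members, their role groups and all gene lists were chosen with earlier results of these data known. Values per library are given for the member with the lowest p and the one with the highest level in each role, the extremes of fold change and spread, and Mki67, Top2a and Cenpa. Of the other mitotic genes, the 6 with the lowest p were named. The remaining members and the S phase genes that appear by name were picked with their values in view. The alternatives tried were another pseudocount (0.1), another filter (none, or a mean of 5 RPKM), quantile normalization, median-ratio scaling, RPKM without the log, moderation with no intensity trend, limma-voom, the replicate number as a block, and leaving out each library. Scripts were tested on simulated data. Python 3.11.15 with numpy 2.4.6, pandas 2.3.3, scipy 1.17.1 and matplotlib 3.10.9 was used for the rest. Promoter windows are those of RefSeq for GRCm38.p6, matched by symbol, and up to 30 annotated exon bases were allowed in a printed stretch of 200. Symbols were matched through RefSeq for 25275 of the 27179 genes. GC content is that of the longest GENCODE transcript.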

Additional observations from a re-analysis of the deposited data

How the results depend on the processing

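At 1947168 to 2381861 reads a library, the interval of a member's log2 fold change was wider than most differences, and a p that missed the threshold does not show that the groups were alike. Of 388 values of the 26 named members under 15 alternatives, 377 kept their direction and their side of the threshold. Limma-voom called 2 members, Nusap1 (0.96, adjusted p = 0.0344) and Espl1 (0.65, adjusted p = 0.0372), and 1 of the other mitotic genes, where limma called none. Without the intensity trend 11 members, in place of 19, were at an unadjusted p under 0.05 (5.92% of tested genes were higher at that p, against 6.43% with it). Over all tested genes 403 were called, 206 with untransformed RPKM and 246 with the replicate block. The block left 15 members (4.84% of tested genes) at an unadjusted p under 0.05 and changed no call of a member. Same-numbered libraries did not deviate together (correlations 0.059, -0.059 and -0.123), so the numbers were not taken as pairs. The counts without overlap and the library medians come from no fit and have no blocked value.

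When libraries were left out in turn, 203 to 293 genes were called, 0 of the members and 0 to 1 of the other mitotic genes (Ect2 without Asic3-null 2, Cenpp without WT 2). Members at an unadjusted p under 0.05 numbered 7 to 27, with 7 without Asic3-null 3 or WT 1 and 8 without Asic3-null 1. Members without overlap in either direction numbered 19 (without WT 1) to 35 (without Asic3-null 2), where 30.9% and 34.1% of tested genes had none, against 22.6% with all libraries. The range over libraries of the members' median deviation was 0.415 to 0.969, the lowest without WT 1, and 0.935 with all libraries. The median log2 fold change was 0.21 to 0.53. The sign turned in 10 of the 55 members, all with intervals that include 0. In the 5 that are among the 26, log2 fold changes ranged from -0.068 (without WT 1) to 0.41 for Aurka, from -0.53 to 0.22 (without Asic3-null 2) for Cenpk, from -0.37 to 0.12 (without Asic3-null 2, and 0.06 without WT 2) for Cenpf, from -0.18 (without Asic3-null 1) to 0.63 for Knl1, and from -0.25 (without Asic3-null 1) to 0.37 for Mki67, which was also below 0 without Asic3-null 3, WT 1 or WT 3. The other 5 were Cenpe, Cenpm, Plk1, Smc4 and Sgo2a. The cause was not tested.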
